A study of Homo sapiens with 6 samples.

Results

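The activator protein 1 (AP-1) genes examined here are the 4 Fos family genes FOS, FOSB, FOSL1 and FOSL2 and the 3 Jun family genes JUN, JUNB and JUND. They were taken by name, 7 of the 19970 protein-coding genes on chromosomes 1 to 22 and X, and each was described by the peaks over its RefSeq gene body (GRCh38) with 10 kb on each side. Chromatin immunoprecipitation and sequencing (ChIP-seq) for trimethylated and dimethylated lysine 4 of histone H3 (H3K4me3 and H3K4me2) had been done in K562, a human line from blast crisis chronic myeloid leukaemia. Cells were infected with a hairpin targeting STAU2 (shStau2), whose product Staufen 2 binds RNA duplexes, or a control hairpin (shControl), and no other treatment or time is given in the labels. There was 1 library per mark and hairpin, called against 1 input library per hairpin, so no test between hairpins was possible and every difference below describes these libraries only. Both hairpins were compared in the same cell line, the knockdown itself cannot be checked from these marks, and no outside scale for the amount of a mark was used.

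AP-1 is a dimer of basic leucine zipper proteins. Jun proteins pair with each other or with Fos proteins, whereas Fos proteins need a Jun partner to bind DNA, at the AP-1 site or the related cyclic AMP response element (CRE). FOS, FOSB, JUN and JUNB are classic immediate early genes, transcribed within minutes of growth factor or stress signals and then shut off, whereas JUND is expressed more steadily. FOSL1 and FOSL2 encode the Fos-related proteins FRA1 and FRA2, which lack the strong activation domain of FOS and tend to follow later. H3K4me3 marks gene starts that are active or poised, and H3K4me2 covers starts more widely and also marks enhancers.

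The start proximal promoters of 5 members are shown because gaps between peaks at their starts, described below, reach into these bases. Each runs 5′ to 3′ on the gene's strand over the 250 bases before the start, from RefSeq on GRCh38.p14, and capitals mark the CRE core TGACGT, the longer AP-1 or CRE form TGACNTCA and the TATA motif TATAAA on either strand.
FOS (chr14:75278578-75278827, plus strand): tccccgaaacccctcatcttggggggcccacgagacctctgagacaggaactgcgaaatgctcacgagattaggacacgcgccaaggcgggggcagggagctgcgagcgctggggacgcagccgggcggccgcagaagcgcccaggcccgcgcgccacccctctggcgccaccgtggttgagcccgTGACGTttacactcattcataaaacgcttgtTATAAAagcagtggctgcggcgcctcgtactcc
FOSB (chr19:45467746-45467995, plus strand): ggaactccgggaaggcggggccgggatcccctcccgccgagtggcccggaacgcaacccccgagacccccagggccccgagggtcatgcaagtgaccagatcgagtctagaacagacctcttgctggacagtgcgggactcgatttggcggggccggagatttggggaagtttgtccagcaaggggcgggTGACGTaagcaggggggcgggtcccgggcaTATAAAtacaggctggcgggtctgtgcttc
JUN (chr1:58784048-58784297, minus strand): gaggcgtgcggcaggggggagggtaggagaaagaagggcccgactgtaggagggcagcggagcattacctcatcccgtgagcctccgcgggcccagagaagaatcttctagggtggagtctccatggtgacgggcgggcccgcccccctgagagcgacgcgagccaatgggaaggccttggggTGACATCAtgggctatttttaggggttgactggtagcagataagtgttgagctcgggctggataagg
JUNB (chr19:12791236-12791485, plus strand): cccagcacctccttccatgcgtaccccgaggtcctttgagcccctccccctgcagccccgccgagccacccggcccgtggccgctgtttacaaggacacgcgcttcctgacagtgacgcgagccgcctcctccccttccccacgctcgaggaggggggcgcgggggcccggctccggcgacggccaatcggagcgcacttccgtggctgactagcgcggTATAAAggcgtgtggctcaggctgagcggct
JUND (chr19:18281623-18281872, minus strand): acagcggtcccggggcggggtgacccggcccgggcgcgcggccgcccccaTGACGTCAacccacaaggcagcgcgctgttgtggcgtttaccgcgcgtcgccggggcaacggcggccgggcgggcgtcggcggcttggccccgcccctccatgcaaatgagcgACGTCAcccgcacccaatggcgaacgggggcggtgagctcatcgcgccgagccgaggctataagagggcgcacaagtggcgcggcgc

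The RefSeq promoter table holds 6 members and lacks FOSL1. Of these 6, 4 held TGACGT, namely FOS, FOSB, FOSL2 and JUND. That motif was present in 7.1% of the 35116 promoters of the table over the same 250 bases. The FOS match lay at -64 to -59, the FOSB match at -60 to -55 and the FOSL2 match at -66 to -61, so the Fos family copies sat at almost the same distance from the start. TGACNTCA was found in JUN at -67 to -60 and in JUND at -200 to -193, against 6.87% of all promoters. In JUND that match is its own reverse complement and holds TGACGT on both strands, and a further TGACGT match on the opposite strand lay at -87 to -82. TATAAA was found in FOS, FOSB and JUNB at about -30, against 10.7% of all promoters. TGANTCA, the AP-1 site itself, was in none of the 6 windows and in 6.57% of all promoters. GGGCGG was in 5 of the 6, against 42.6%, and CCAAT in JUN, JUNB and JUND, against 32% of all. The CArG box was in 0 of the 6 and in 1.16% of all. All were searched on both strands. The 6 promoters ran from 62% GC and 14 CpG at JUN to 74.8% GC and 40 CpG at JUND. The medians over all promoters were 58% GC and 11 CpG, so the shares above are not matched for composition. A match is a run of letters, and 0 matches says only that the letters are not in this window.

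All 7 members carried both marks in both lists within their windows, against 72.3% of all genes for H3K4me3 and 86.6% of those in the compared region for H3K4me2. In addition, the 6 members with a tabulated start had a peak of both marks within 1 kb of it under both hairpins. Among all protein-coding genes with a tabulated start, 62.2% had H3K4me3 and 70.2% of those in the H3K4me2 region had H3K4me2 at the start in both lists. As a check of the cell type, the K562 genes GATA1, TAL1, LMO2, KLF1, HBG1, HBG2 and TFRC all had H3K4me3 in both lists, as did COL1A1 of other lineages. ALB, also of another lineage, had H3K4me3 under shStau2 only, and PTPRC, CD3E and KRT5 had none in either list. ChIP libraries held 26221869 to 30744332 tags after removal of duplicates. Duplicates were 12.9% of the H3K4me3 tags under shStau2 and 6.51% under shControl. The H3K4me2 lists used here end partway through the genome, but both hold chromosomes 1, 2, 11, 14 and 19 in full, where the members lie.

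**Figure D1:**
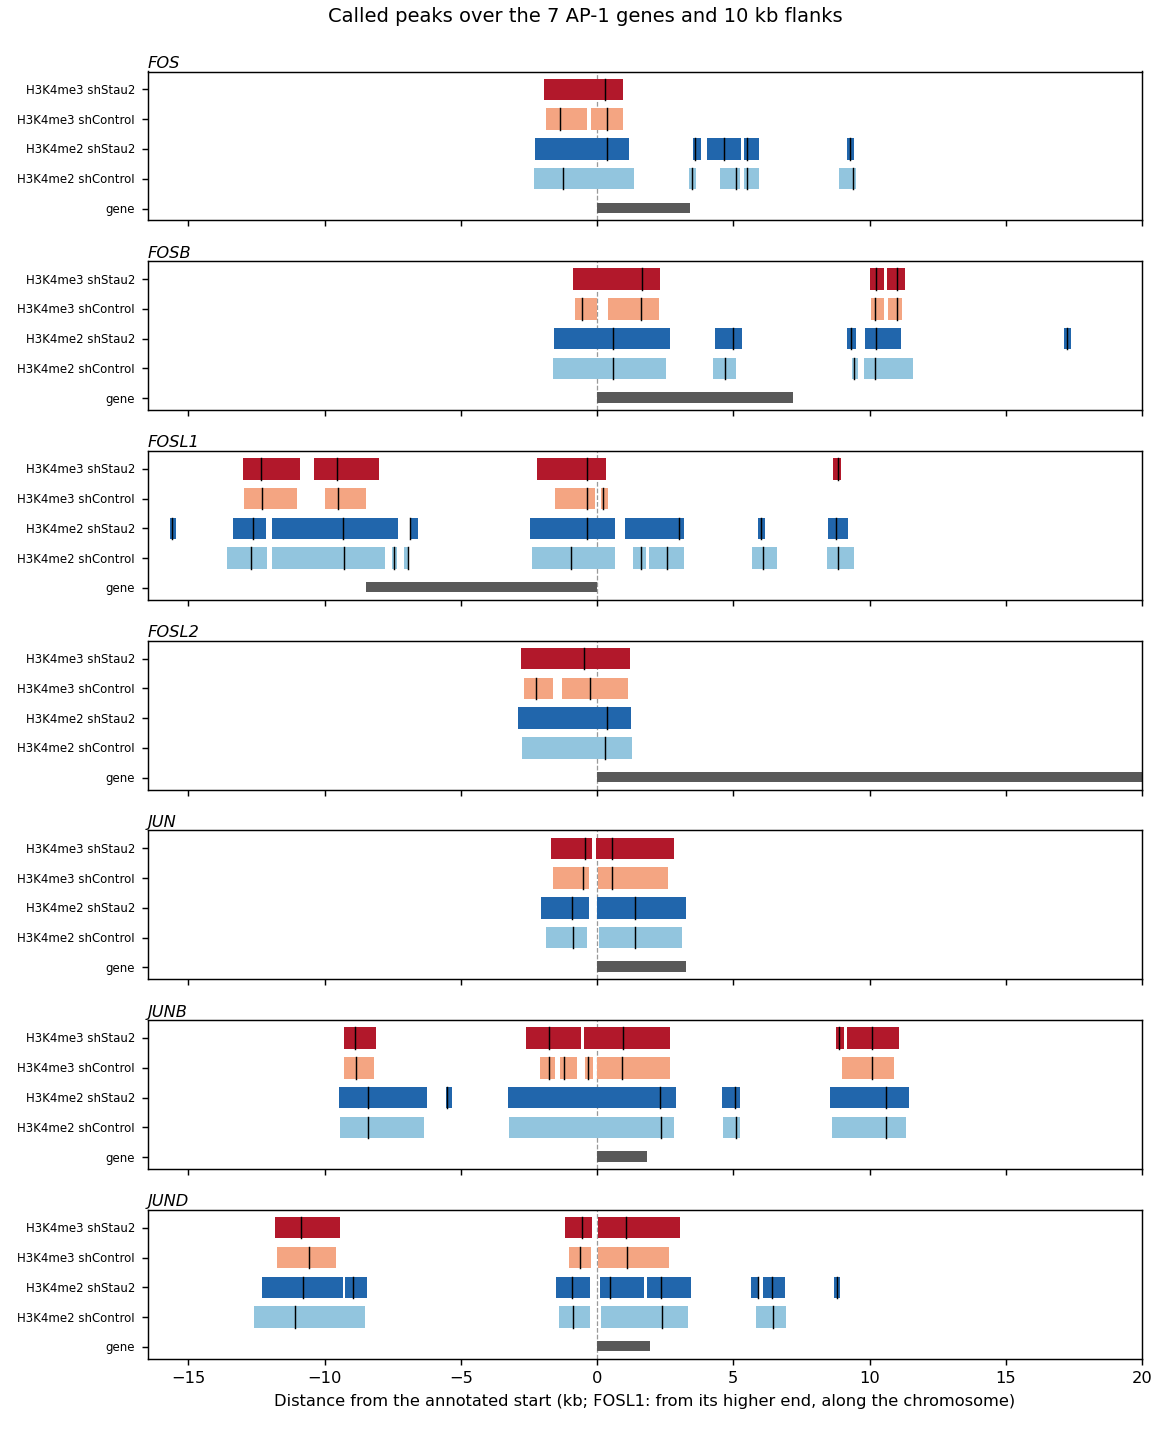
Called peaks of each list over the 7 genes; coloured bars are peaks, black ticks their summits and grey bars the genes, against distance from the annotated start in the direction of transcription (FOSL1 from its higher end along the chromosome; FOSL2 runs past the right edge and had no peak there). The H3K4me3 bars under shControl are broken at FOS, FOSB, FOSL1 (at its higher end), FOSL2 and JUNB where the shStau2 bars run on or are broken less often. JUN and JUND keep a gap at or just before the start in both lists.

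The Fos family differed among themselves in how much of the window was marked. At FOS, the prototype member, which lies on chromosome 14 at 75278828 to 75282230, H3K4me3 covered 2884 bases under shStau2 and 2661 under shControl. Under shStau2 this was 1 peak from -1932 to 951 relative to the start, with its summit at 287. Under shControl it was 2 peaks, from -1864 to -368 and from -224 to 939, with a gap of 143 bases between them. That gap ends within the promoter printed above and upstream of its CRE core. Outside the start, FOS had no H3K4me3.

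The H3K4me3 summit at FOS was the lowest among the members. A summit pileup is the number of extended tags over the peak's highest base, given here scaled to 1000000 ChIP tags (RPM) with an exact 95% Poisson interval for counting error only. At FOS it was 3.27 (2.61 to 4.04, 86 tags) under shStau2 and 2.54 (2.01 to 3.17, 78 tags) under shControl, and these intervals overlap. The ratio was 1.29, whereas the median over the 9775 starts marked in both lists was 1.87, and FOS lay at the 1.05 percentile of that distribution. The FOS start thus differed less between hairpins than nearly all other H3K4me3 starts in these libraries.

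H3K4me2 at FOS lay above the median of gene starts by summit pileup and reached beyond the gene. That pileup was at the 84.1 percentile of starts under shStau2 and the 74.7 percentile under shControl. The start peak ran from -2261 to 1182 under shStau2 and from -2301 to 1359 under shControl. Its summit pileup was 4.68 RPM (3.91 to 5.56) under shStau2 and 3.55 (2.86 to 4.34) under shControl, a ratio of 1.32 against a median of 1.17 over 8301 starts. The summit lay inside the gene, at 356, under shStau2, and upstream, at -1237, under shControl. Downstream of the gene, 4 further H3K4me2 peaks without H3K4me3 were listed under each hairpin, between 3371 and 9492 bases from the start; that nearest the start began inside the gene under shControl. The tallest of the 4 was at 5517 under shStau2, with 1.07 RPM, and at 5084 under shControl, with 1.22.

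FOSB, a close relative of FOS, lies on chromosome 19 at 45467996 to 45475179. Its H3K4me3 covered 4370 bases of the window under shStau2 and 3646 under shControl. The start carried 1 peak under shStau2, from -895 to 2314, and under shControl a pair, from -829 to -15 and from 416 to 2277. The 430 bases between the pair held the start itself. The tallest summit was inside the gene, at 1658 under shStau2 with 6.27 RPM (5.35 to 7.30) and at 1627 under shControl with 3.38 (2.76 to 4.10), a ratio of 1.85, close to the median ratio of all starts.

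H3K4me2 at FOSB covered 6943 bases under shStau2 and 7045 under shControl. Its start peak had 5.97 RPM (5.10 to 6.95) under shStau2 and 4.35 (3.59 to 5.22) under shControl, a ratio of 1.37 at the 87.2 percentile of all starts, which was the highest H3K4me2 ratio among the members. A weaker H3K4me2 peak inside the gene had its summit at 4985 under shStau2 and at 4701 under shControl. Beyond the gene, both marks were found at about 10 kb from the start, where the selenocysteine tRNA gene TRU-TCA1-1 lies. An H3K4me3 peak overlapped part of that tRNA gene in both lists. Its summit, past the tRNA gene at 10996 in both, had 3.69 RPM under shStau2 and 2.08 under shControl. This pair of peaks need not belong to FOSB.

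FOSL1 encodes FRA1 and lies on chromosome 11 at 65892049 to 65900545. It had the largest increase of H3K4me3 coverage among the members, with 7250 bases under shStau2 and 5181 under shControl, a ratio of 1.40. At its higher end, H3K4me3 ran from -2205 to 316 under shStau2, counted along the chromosome from that end. Under shControl the same place held a peak from -1549 to -79 and a small one from 128 to 397. The summit there had 9.95 RPM (8.79 to 11.2) under shStau2 and 5.20 (4.43 to 6.08) under shControl. That was the tallest H3K4me3 summit at a member's start or end under shStau2, while under shControl JUND had a slightly taller one. The ratio of 1.91 was near the median of all starts.

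Other peaks in the FOSL1 window lie at neighbouring genes. A peak with 7.48 RPM under shStau2 and 3.94 under shControl spanned CCDC85B and reached the lower end of FOSL1, and the next, with 6.61 RPM under shStau2 and 3.58 under shControl, overlapped FIBP. Above the higher end, FOSL1 had a row of H3K4me2 peaks out to 9210 bases under shStau2 and 9438 under shControl. The outermost of them also had H3K4me3 under shStau2, in a peak of 265 bases with 4.87-fold enrichment (the authors' ratio of summit to local background). That was the only H3K4me3 peak of the 19 listed under shStau2 in the 7 windows that overlapped no shControl peak, and none of the 23 under shControl lacked a shStau2 counterpart. Its 18 tags at the summit make it a weak call. Across the genome, 33% of windows with any H3K4me3 held a peak of the shStau2 list only and 0.98% one of the shControl list only.

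FOSL2, which encodes FRA2, lies on chromosome 2 at 28392858 to 28417317 and was marked only around its start. H3K4me3 ran from -2794 to 1197 under shStau2 as 1 peak. Under shControl it was split into peaks from -2683 to -1620 and from -1270 to 1123. The antisense gene FOSL2-AS1 overlaps this region, and the marks of the 2 genes cannot be told apart. The summit had 5.36 RPM (4.51 to 6.32) under shStau2 and 2.63 (2.09 to 3.27) under shControl, and the ratio of 2.03 was the highest of the 6 members with a start and lay at the 76.7 percentile of all starts. H3K4me2 was 1 peak in both lists, 4138 bases wide under shStau2 and 4052 under shControl. Its summit ratio of 1.14 was the lowest of those 6 for H3K4me2.

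**Figure D2:**
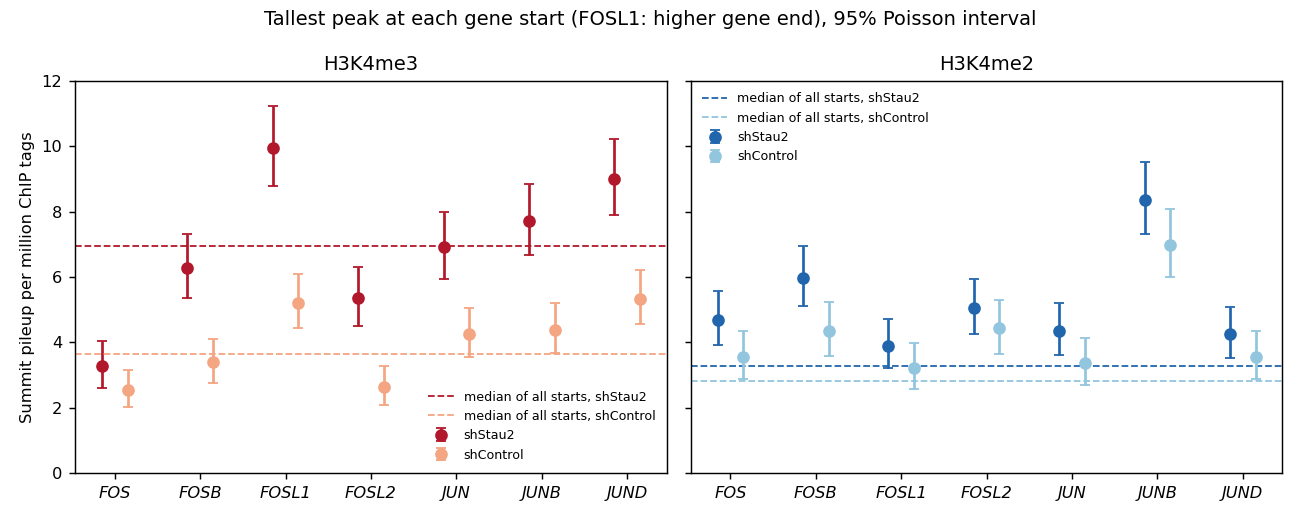
Summit pileup RPM ChIP tags of the tallest peak within 1 kb of each gene start (FOSL1, higher end) for H3K4me3 (left) and H3K4me2 (right); points are single libraries, bars exact 95% Poisson intervals for counting error and dashed lines the medians over all starts marked in both lists. For H3K4me3, FOS stands lowest among the members under shStau2 and is the 1 gene whose hairpin intervals overlap, and for H3K4me2 JUNB stands highest.

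JUN, the founding Jun gene, lies on chromosome 1 at 58780791 to 58784047 and is read from the minus strand. Both marks formed a pair of peaks with a gap between them in both lists, over the start under shControl and just upstream of it under shStau2. For H3K4me3 the gap between them ran from -188 to -49 under shStau2 and from -279 to 14 under shControl. For H3K4me2 it ran from -289 to -5 under shStau2 and from -373 to 59 under shControl. All of these gaps hold the TGACATCA match at -67 to -60 printed above. The gaps were narrower under shStau2 for both marks, with 140 against 294 bases for H3K4me3 and 285 against 433 for H3K4me2.

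H3K4me3 at JUN covered 4399 bases under shStau2 and 3922 under shControl. The peak inside the gene was the taller, with 6.91 RPM (5.95 to 8.0) under shStau2 and 4.26 (3.56 to 5.06) under shControl, a ratio of 1.62 at the 8.85 percentile of all starts. The upstream peak, which reaches the divergent transcript JUN-DT, had 5.77 RPM (4.89 to 6.77) under shStau2 and 2.63 (2.09 to 3.27) under shControl. Its ratio was larger than that of the gene side, but whether the 2 ratios differ beyond counting error was not tested. H3K4me2 inside the gene had 4.36 RPM (3.62 to 5.21) under shStau2 and 3.36 (2.69 to 4.13) under shControl. The JUN window held no peak of either mark away from this pair.

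JUNB, an antagonist of JUN in several settings, lies on chromosome 19 at 12791486 to 12793315 and had the largest marked share of its window among the members. The annotation of HOOK2 overlaps its start, and the marks of the 2 genes there cannot be told apart. H3K4me2 covered 60.3% of its window under shStau2 and 57.2% under shControl, and H3K4me3 covered 39.4% under shStau2 and 33.2% under shControl. The start peak of H3K4me2 was 6166 bases wide under shStau2 and 6053 under shControl, wider than the 1830 bases of the gene. Its summit, just beyond the gene at 2319 under shStau2 and 2329 under shControl, had 8.36 RPM (7.33 to 9.51) under shStau2 and 6.98 (6.0 to 8.07) under shControl. Both values lay at the 99.2 percentile of starts marked in both lists, so JUNB was among the strongest H3K4me2 starts under either hairpin.

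H3K4me3 at JUNB was broken into more peaks under shControl. Between -2617 and 2679 there were 2 peaks under shStau2, with a gap of 93 bases, and under shControl 4 peaks between -2105 and 2682. The shControl gap nearest the start ran from -153 to -3, within the promoter printed above and over its TATAAA match. The tallest, over the gene, had 7.71 RPM (6.69 to 8.85) under shStau2 and 4.39 (3.68 to 5.20) under shControl, a ratio of 1.76. Upstream, inside the neighbouring gene HOOK2, a separate element carried both marks. Its H3K4me2 peak had 5.86 RPM under shStau2 and 4.69 under shControl, and its H3K4me3 peak 4.45 under shStau2 and 2.28 under shControl. Downstream, a peak at the boundary of PRDX2 and THSD8 had 8.24 RPM of H3K4me3 under shStau2 and 4.72 under shControl. Between JUNB and PRDX2 lay an H3K4me2 peak without H3K4me3, with its summit at 5048 under shStau2 and 5084 under shControl.

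JUND, the more steadily expressed Jun gene, lies on chromosome 19 at 18279694 to 18281622 on the minus strand. A gap lay over its start for both marks under both hairpins, whereas at JUN this held under shControl only. For H3K4me3 the gap ran from -194 to 28 under shStau2 and from -236 to 26 under shControl. For H3K4me2 it ran from -250 to 102 under shStau2 and from -253 to 157 under shControl. The CRE core at -87 to -82 lies in all of these gaps, and the longer site at -200 to -193 in all but that of H3K4me3 under shStau2, whose edge it straddles.

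H3K4me3 over the JUND gene had its summit at 1073 under shStau2 with 9.0 RPM (7.89 to 10.2) and at 1092 under shControl with 5.33 (4.55 to 6.22), a ratio of 1.69. H3K4me2 was arranged otherwise, with its upstream side the taller, though barely so under shControl. There the summit had 4.25 RPM (3.52 to 5.09) under shStau2 and 3.55 (2.86 to 4.34) under shControl. Over the gene, H3K4me2 was split under shStau2 into peaks from 103 to 1731 and from 1817 to 3455, whereas under shControl it was 1 peak from 158 to 3333. The start-side piece, in which H3K4me3 was tallest, reached 1.47 RPM of H3K4me2 under shStau2. The upstream peaks lie over MIR3188 and LOC124904652, and a further element with both marks overlapped LOC124904653 upstream.

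The authors' fold enrichment did not follow the pileup at every member. At JUND, the peak over the gene had 30.1-fold enrichment under shStau2 and 33.8-fold under shControl although its pileup was higher under shStau2. Fold enrichment in these lists equals the pileup plus 1 over the local background plus 1, and the background so implied was 5.0 under shStau2 and 2.0 under shControl at that peak. At FOS the reverse held for H3K4me2, with 38.1-fold under shStau2 and 16.9-fold under shControl, where the implied background was 1.48 under shStau2 and 3.0 under shControl. The floor set by the whole genome was 1.48 under shStau2 and 1.39 under shControl. The fold enrichment of a member thus moved with a local input level of a few tags, and the pileup RPM was used for the comparisons here.

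Every member had more H3K4me3 coverage under shStau2, and the ratio of 6 of the 7 lay below the median of all genes. The ratio of covered bases ranged from 1.08 at FOS to 1.40 at FOSL1, with a median of 1.18, against a median of 1.25 over 14431 genes covered in both lists. More H3K4me3 under shStau2 was seen at 98.7% of all genes, so the direction is shared with nearly all of them. No member reached a ratio of 1.5, which 19% of all genes did, and none fell to its inverse, as 0.0208% did. Over the gene bodies alone, without flanks, 5 of 7 had more, FOSL1 reached a ratio of 1.79, JUNB was equal at 1830 bases in both lists, and JUND had 1900 under shStau2 and 1902 under shControl.

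**Figure D3:**
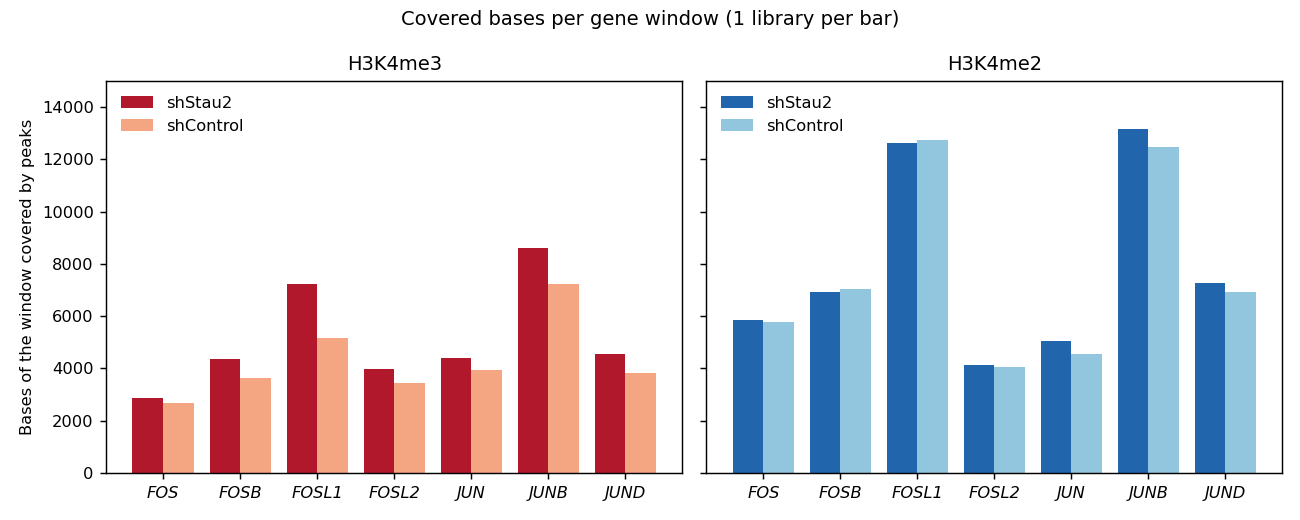
Bases of each gene window covered by H3K4me3 (left) and H3K4me2 (right) peaks in each list, 1 library per bar. H3K4me3 bars are taller under shStau2 at all 7 genes, and H3K4me2 bars differ little between hairpins.

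H3K4me2 coverage differed little. It was higher under shStau2 at 5 of the 7 members, against 81.1% of all genes, and lower at FOSB and FOSL1. Ratios ran from 0.986 at FOSB to 1.10 at JUN, with a median of 1.02 against 1.10 over 12750 genes. No member reached 1.5, as 8.09% of all genes did, or its inverse, as 0.941% did. Over the gene bodies alone, 3 members had more H3K4me2 under shStau2, whereas 6 did with 5 kb flanks and 7 with 20 kb flanks. FOSL1 had more in each of these, at ratios of 1.12, 1.06 and 1.04, and was lower with 10 kb flanks only. FOSB was also lower with 5 kb flanks, at 0.978, but not with 20 kb flanks or none. Of 34 peaks under shStau2, 5 had no shControl counterpart, in the windows of FOSB, FOSL1, JUNB and JUND. Of 29 under shControl, 1 had no shStau2 counterpart, inside FOSL1. Of all windows with any H3K4me2, 49.4% held a peak of the shStau2 list only and 28.4% one of the shControl list only. All 6 were narrow, from 200 to 318 bases, away from the starts, and of 2.94-fold to 5.08-fold enrichment.

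At the starts, 5 of the 6 members with a tabulated start had an H3K4me3 summit at least 1.5 times higher under shStau2, all but FOS, against 96.6% of all starts. Their Poisson intervals were apart with shStau2 higher, as at 93.8% of all starts. For H3K4me2 none of the 6 reached 1.5, against 5.66% of all starts, and the intervals of the hairpins overlapped at each. Among all starts, 3.04% had H3K4me2 intervals apart with shStau2 higher. For H3K4me3, 5 of the 6 ratios lay below the median of all starts, and FOSL2 lay above it. No member fell to the inverse of 1.5, against 0.0512% of all starts for H3K4me3 and 0.277% for H3K4me2. For H3K4me2 it was the other way round, with 5 above the median and FOSL2 below.

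**Figure D4:**
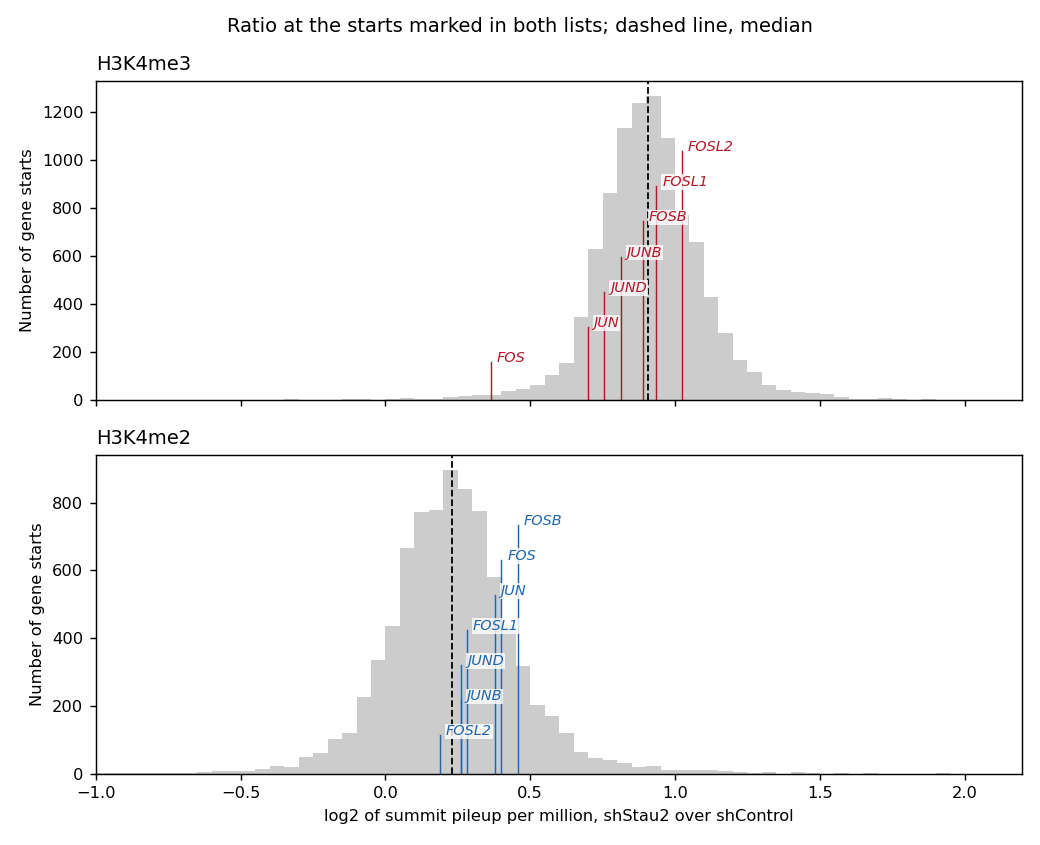
Distribution of the log2 ratio of summit pileup RPM, shStau2 over shControl, over all gene starts marked in both lists (grey) with its median (dashed), and the members as lines (FOSL1 by its higher end). FOS lies far to the left for H3K4me3 and right of the median for H3K4me2, while the other members lie within the bulk of both distributions.

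Most members had H3K4me3 gaps near the start under shControl. Of the 6 starts, 5 had at least 2 shControl peaks within 1 kb, against 21.6% of all starts marked in both lists. Among these 5, 3 starts, FOS, FOSB and JUNB, had fewer under shStau2, against 72.3% of all such starts. The start base lay outside every H3K4me3 peak at FOSB, JUN and JUND under shControl, against 9.31% of all starts marked in both lists, and under shStau2 at JUND, against 4.13%. H3K4me2 left the start base of JUND uncovered under shStau2 and those of JUN and JUND under shControl, against 38.7% of all starts under shStau2 and 45.7% under shControl. For H3K4me2, 2 of the 6, JUN and JUND, had at least 2 shControl peaks at the start, against 55.7% of all starts, and neither had fewer under shStau2, against 21.5% of such starts. None with 1 shControl peak had 2 or more under shStau2, against 3.55% of all such starts for H3K4me3 and 9.54% for H3K4me2. Per the file headers, peaks were called with a gap limit of a tag length, so a gap closes once its pileup passes the threshold. The H3K4me3 gap of FOS was closed under shStau2 at a summit ratio of 1.29. JUN, at 1.62, and JUND, at 1.69, kept a gap. The part of the higher shStau2 summits in the closing of gaps was not tested.

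H3K4me3 lay almost wholly inside H3K4me2 at every member. Of the H3K4me3 bases, 95.3% or more were also under H3K4me2 in each window and list. The reverse share varied widely. At FOSL2, 96.5% of H3K4me2 bases also had H3K4me3 under shStau2 and 85.3% under shControl, and at JUN 84.4% under shStau2 and 82.8% under shControl. At FOS the shares were 49.3% under shStau2 and 46.0% under shControl, and FOSL1 had the widest difference, with 55.6% under shStau2 and 39.2% under shControl. FOSL2 and JUN had no H3K4me2 peak without H3K4me3, whereas the windows of FOS, FOSL1 and JUND held 4 each under shStau2. Under shControl, FOS held 4, FOSL1 held 6 and JUND held 1. In all, 17 of 34 H3K4me2 peaks under shStau2 and 14 of 29 under shControl had no H3K4me3. The shares, counts and widths of this paragraph are given for the members only. Without the same values over all genes, they cannot be read as particular to AP-1 genes. Those were narrow, with a median of 318 bases under shStau2 and 608.5 under shControl, whereas the H3K4me2 peaks with H3K4me3 had a median of 2975 bases under shStau2 and 3082 under shControl.

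**Figure D5:**
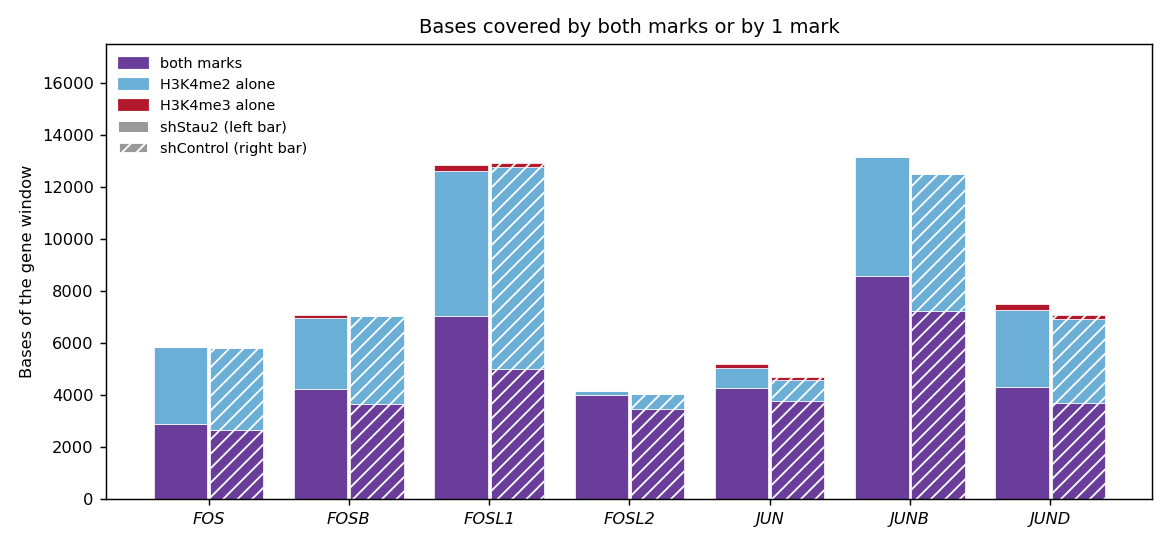
Bases of each gene window covered by both marks, by H3K4me2 alone or by H3K4me3 alone, with shStau2 as the plain left bar and shControl as the hatched right bar. H3K4me2 alone makes up about as much as both marks at FOS and nearly nothing at FOSL2 under shStau2.

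Other genes of the pathway are given from lists, by the same windows and the same ratio of 1.5, which 19% of all genes reached for H3K4me3 with a median of 1.25, and 8.09% for H3K4me2 with a median of 1.10. Of 28 genes for other basic leucine zipper proteins, which include partners and competitors of AP-1, 25 had H3K4me3 in both lists and 7 of these reached the ratio, against 19% of all genes, with a median of 1.22. CREB5, a CRE-binding factor, had 1703 covered bases under shStau2 and 771 under shControl, and CREB3 had 6866 under shStau2 and 3795 under shControl. BATF and MAF had H3K4me3 under shStau2 only, with 265 and 1201 bases. At the low end, BACH1 had 2982 bases under shStau2 and 2832 under shControl, and MAFF had 2768 under shStau2 and 2604 under shControl. For H3K4me2, 1 of 22 reached the ratio, MAF, with 8078 bases under shStau2 and 4892 under shControl, and ATF6 came next at 1.41. CREB1, at 0.920, and BATF2, at 0.955, had the lowest H3K4me2 ratios. The H3K4me2 median was 1.09.

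Among 30 genes upstream of AP-1, in the mitogen-activated protein kinase cascade and among factors acting on FOS and JUN, 28 had H3K4me3 in both lists and 5 reached the ratio, with a median of 1.24. MAPK10, a Jun kinase, had 2134 bases under shStau2 and 496 under shControl, and ELK1, a partner of SRF, had 4587 under shStau2 and 2697 under shControl. The lowest was the kinase gene BRAF, with 2436 under shStau2 and 2374 under shControl. SRF, which drives FOS through the serum response element, had 4841 under shStau2 and 4502 under shControl. DUSP2 and DUSP6, phosphatases that switch off the kinases, had no H3K4me3 in either list. DUSP6 was also the 1 gene of 22 past the inverse ratio for H3K4me2, with 347 bases under shStau2 and 1069 under shControl, and MAPK3 was next lowest at 0.927. None reached 1.5 for H3K4me2, with MAP2K4 at 1.49, DUSP2 at 1.26 and a median of 1.12.

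Of 15 known AP-1 target genes, 10 had H3K4me3 in both lists, and 2 of these reached the ratio, with a median of 1.28. They were TIMP1, an inhibitor of matrix proteases, with 1611 bases under shStau2 and 725 under shControl, and the cytokine gene IL6, with 2686 under shStau2 and 1504 under shControl. The collagenase genes MMP1 and MMP3, and SPP1 and CXCL8, had none in either list. CD44 had H3K4me3 under shStau2 only. The lowest H3K4me3 ratios were those of NQO1, at 1.05, and FTH1, at 1.07. For H3K4me2, with a median of 1.13 over 12 genes, SPP1 reached the ratio, with 858 bases under shStau2 and 549 under shControl, and CXCL8 passed the inverse ratio, with 798 under shStau2 and 1693 under shControl. CD44 was next highest at 1.41 and PLAUR next lowest at 0.897.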

How the data were processed

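Per the submitters' processing notes, the authors aligned reads with Bowtie2 to hg38 and called peaks with MACS2. Per the file headers, MACS2 2.1.2 was run on each library alone against its input, at a q-value of 0.05, with fragments of 200 bases, tags of 76 bases and 1 tag per position. The deposited lists hold the summit pileup (signal), the fold enrichment (ratio) and, as −log10 values, the p-value and q-value. The headers state that MACS2 scaled the larger of ChIP and input down, so the pileup was divided by that scale. All values came out whole within 0.05, and were then set per 1000000 ChIP tags (RPM). Gene positions and starts came from RefSeq GRCh38.p14, with 15714 starts in all and 11822 in the H3K4me2 region. Peaks were shared at 1 base of overlap. H3K4me2 was compared on 16 whole chromosomes and part of chromosome 4. The design asked for ranks over matched peaks; starts marked in both lists were used instead, since several starts hold split peaks. Members and lists were chosen with earlier results of these data known. The named genes are all members and, in each list, those of the largest or smallest ratio; genes marked in 1 list or in neither, and the gaps and neighbouring genes described, were added after their values were seen. Some genes of the marker and pathway lists are not reported here by name. Overlap and coverage code was tested on simulated peaks. Computation used Python 3.11.15 with pandas 2.3.3, numpy 2.4.6 and scipy 1.17.1, and figures matplotlib 3.10.9.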

Additional observations from a re-analysis of the deposited data

How the results depend on the processing

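Of 136 values recomputed under other settings, 102 stayed within 1.5 times the reported one. The 6 starts kept both marks in both lists under each threshold tried, 5 of them kept a 1.5-fold higher H3K4me3 summit, also with the pileup as deposited, and 0 reached that for H3K4me2. Peak counts followed the window. With no flank there were 8 H3K4me3 peaks under each hairpin, and 11 H3K4me2 peaks under shStau2 and 12 under shControl; with 20 kb, H3K4me3 had 32 under shStau2 and 35 under shControl, and H3K4me2 58 under shStau2 and 48 under shControl. With peaks within 1 kb merged, H3K4me3 had 13 peaks under shStau2 and 13 under shControl, against 19 and 23 unmerged. Merged H3K4me2 peaks numbered 22 under shStau2 and 19 under shControl. The shStau2-only H3K4me3 peak was lost (0) at a −log10 q of 10, at 5-fold enrichment, with equal numbers of peaks, and with 5 kb or no flank, and there were 3 with 20 kb or with 50% reciprocal overlap, which left 7 shControl-only ones. H3K4me2 had 2 shStau2-only and 3 shControl-only peaks at a −log10 q of 10, 1 shStau2-only and 4 shControl-only at 5-fold enrichment, 2 shStau2-only and 0 shControl-only when merged, and 12 shStau2-only and 7 shControl-only with 50% reciprocal overlap. The shStau2-only ones were 1 with no flank or 5 kb, and 11 with 20 kb. With no flank, 1 member (FOSL1) reached 1.5-fold H3K4me3 coverage and 3 had more H3K4me2. With 50% reciprocal overlap, 3 of 6 strongest H3K4me3 start peaks were shared. H3K4me3 fold enrichment lay above the median at 2 of 6 starts under shStau2 and 4 of 6 under shControl. Only 2 of the 6 starts had 1 to 1 matched peaks. Both lay above the median of all 15552 matched H3K4me3 peaks under either hairpin. That median is not limited to gene starts, so these counts cannot be set beside the ones over starts. That alternative was chosen after the data were seen, as was the pileup as deposited. No paired analysis was possible because each group holds 1 library. Depth limits the peaks with few tags at the summit most.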

Other observations

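The JUNB window is shared with other genes that also lay under H3K4me3 peaks. The tallest H3K4me3 peak of that window overlapped THSD8 and PRDX2, an antioxidant peroxiredoxin gene abundant in red cells. Its summit had 8.24 RPM (217 tags) under shStau2 and 4.72 RPM (145 tags) under shControl. The peak over JUNB had 7.71 RPM (203 tags) under shStau2 and 4.39 RPM (135 tags) under shControl. At the selenocysteine tRNA gene beside FOSB, H3K4me3 formed a pair of peaks in both lists, 512 and 648 bases wide under shStau2 and 456 and 513 under shControl.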
